A study of Mus musculus with 12 samples.

Results

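Potassium channels were examined as a gene family in the ischemic hemisphere of mice. The members were the rows of the count table annotated as protein coding whose symbol begins with Kcn, the stem under which potassium channel subunits are named. There were 94 of them among 39756 genes, made up of 40 pore subunits of voltage-gated channels, 13 accessory subunits of those channels, 15 inward rectifiers, 14 two-pore channels and 12 calcium-activated and related channels. Another 4 Kcn rows annotated as long non-coding RNA (Kcnd3os, Kcnmb4os1, Kcnmb4os2 and Kcnq1ot1) were left out. RNA was sequenced from brain of 12 C57BL/6J mice with no engineered allele named in the labels, 4 in each of 3 groups. The Vehicle and LJP groups underwent transient middle cerebral artery occlusion (tMCAO), a model of stroke in which the artery is blocked, here for 45 min, and then reopened. The Sham group had the surgery without this injury. The LJP group received Laminaria japonica polysaccharide, a sulfated polysaccharide of a brown seaweed, by gavage from 14 days before surgery, and the other groups received saline. By the study's methods the mice were males of 9 to 10 weeks. The dose and the time of collection of the sequenced mice are not stated in the labels, and all 12 libraries carry the same batch label. Each library is from 1 mouse, so the p-values measure the spread between these mice.

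Potassium channels let potassium leave the cell along its gradient. In neurons, voltage-gated channels end the action potential and set how often a cell fires, inward rectifiers and two-pore channels hold the resting potential, and calcium-activated channels shape the hyperpolarization after a spike. In astrocytes inward rectifiers take up the potassium that neurons release, in microglia two-pore and voltage-gated channels carry outward current, and in vessels the ATP-sensitive channel of pericytes and muscle controls tone. Ischemia raises extracellular potassium, so the family has a long history in stroke research.

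The libraries held 17960353 to 22216315 counts assigned to genes. The members took 0.736 to 0.751% of the counts in the Sham mice, 0.408 to 0.664% in the Vehicle mice and 0.637 to 0.718% in the LJP mice. Values below are depth-normalised counts (CPM, each count divided by library size and TMM factor), and differences are log2 fold changes from edgeR's quasi-likelihood test over all 12 mice. A gene was called changed at a Benjamini-Hochberg adjusted p below 0.05 over the 17558 genes tested. Of the 94 members, 85 passed the filter on low counts. The 9 that did not were Kcna7, Kcna10, Kcne1, Kcne3, Kcnj1, Kcnj15, Kcnk16, Kcnk18 and Kcnv2. Their highest count in a mouse was 8 (Kcna7), 8 (Kcna10), 2 (Kcne1), 9 (Kcne3), 1 (Kcnj1), 73 (Kcnj15), 6 (Kcnk18) and 4 (Kcnv2), and each was at 0 in at least 1 mouse. Kcnk16 had no count in any mouse, where a count of 0 allows up to 0.129 to 0.173 CPM (3 counts, counting error only). Kcnj15, an inward rectifier, had Sham counts of 0, 2, 0 and 2, Vehicle counts of 27, 73, 0 and 7 and LJP counts of 9, 1, 6 and 1. Its highest values were those of Vehicle mice 1 and 2.

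In the Sham brain the members differed widely in level per kilobase of gene model. Kcnip2, an auxiliary subunit of A-type channels, led with 60.3 ± 3.51 CPM per kb (SD, n = 4). Kcnab2, a cytoplasmic beta subunit, had 57.6 ± 2.93 CPM per kb. Kcnh3, an ELK-type pore subunit of forebrain neurons, had 53.9 ± 4.25 CPM per kb. The means of Kcnip2 and Kcnab2 differed by less than either gene's SD. Kcnj9, a G protein-gated rectifier, had 42.5 ± 1.68 CPM per kb. Kcnab2, Kcnh3 and Kcnj9 are named here for their level after their values were seen.

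Promoters are shown for 5 members called in the comparison of Vehicle with Sham mice, to set members that rose (Kcnn4, Kcnk5, Kcnj8) beside members that fell (Kcnd2, Kcnh4). The sequences run from 250 bases before to 50 bases after a RefSeq transcription start (GRCm38.p6), 5′ to 3′ on the gene's strand, and capitals mark the GC box GGGCGG or its reverse complement CCGCCC. They lie at chr7:24370013-24370312 on the plus strand (Kcnn4), chr14:20181733-20182032 on the minus strand (Kcnk5), chr6:142571565-142571864 on the minus strand (Kcnj8), chr6:21215096-21215395 on the plus strand (Kcnd2) and chr11:100759729-100760028 on the minus strand (Kcnh4).
Kcnn4: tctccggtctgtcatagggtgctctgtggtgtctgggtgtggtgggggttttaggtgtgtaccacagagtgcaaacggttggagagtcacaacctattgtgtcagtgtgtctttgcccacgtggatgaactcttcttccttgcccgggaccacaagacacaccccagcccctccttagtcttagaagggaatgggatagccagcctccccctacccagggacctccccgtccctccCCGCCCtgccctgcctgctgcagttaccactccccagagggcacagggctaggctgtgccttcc
Kcnk5: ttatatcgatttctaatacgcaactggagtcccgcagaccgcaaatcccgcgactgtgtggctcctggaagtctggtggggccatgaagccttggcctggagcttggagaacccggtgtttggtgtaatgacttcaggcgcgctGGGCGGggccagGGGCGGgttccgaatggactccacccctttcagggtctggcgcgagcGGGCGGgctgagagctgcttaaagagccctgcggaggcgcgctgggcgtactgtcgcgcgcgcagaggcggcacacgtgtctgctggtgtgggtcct
Kcnj8: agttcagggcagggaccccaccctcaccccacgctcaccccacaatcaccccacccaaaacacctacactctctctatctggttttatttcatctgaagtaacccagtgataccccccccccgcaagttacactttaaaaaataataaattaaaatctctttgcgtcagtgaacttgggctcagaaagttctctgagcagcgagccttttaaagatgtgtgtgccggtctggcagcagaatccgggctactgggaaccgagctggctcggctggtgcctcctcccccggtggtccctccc
Kcnd2: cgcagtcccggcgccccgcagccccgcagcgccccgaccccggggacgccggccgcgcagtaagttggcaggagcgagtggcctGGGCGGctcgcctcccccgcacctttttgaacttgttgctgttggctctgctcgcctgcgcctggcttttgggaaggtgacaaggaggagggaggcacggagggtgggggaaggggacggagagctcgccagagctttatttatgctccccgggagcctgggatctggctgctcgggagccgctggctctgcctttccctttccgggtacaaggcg
Kcnh4: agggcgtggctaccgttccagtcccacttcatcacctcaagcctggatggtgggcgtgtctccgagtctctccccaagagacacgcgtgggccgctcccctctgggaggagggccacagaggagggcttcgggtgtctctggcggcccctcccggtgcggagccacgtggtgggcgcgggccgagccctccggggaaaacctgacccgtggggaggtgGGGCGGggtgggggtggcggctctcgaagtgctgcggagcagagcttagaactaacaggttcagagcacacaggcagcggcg
The Kcnk5 window holds 3 GC boxes, those of Kcnn4, Kcnd2 and Kcnh4 hold 1 each and that of Kcnj8 holds none. RefSeq promoters were found for 69 of the 94 members, 94 promoters in all. The GC box stood in 47.9% of them against 35.7% of all 32851 promoters of the same length, on either strand. The letters TATAAA, the core of the TATA box, stood in 5.32% of member promoters against 13.6% of all, and the AP-1 letters TGANTCA in 4.26% against 7.81%. Of 4 promoters of members that rose in the Vehicle group 2 held a GC box, and of 35 promoters of members that fell 18 did. No one of these motifs contains another, and a match is a description of the sequence only.

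The first comparison, Vehicle against Sham, asks what ischemia and reperfusion did to channel transcripts. Potassium channel genes were mostly lower after injury. Of the 85 members tested, 35 fell and 6 rose, or 41.2% and 7.06%, while 17.3% of all genes tested fell and 22.7% rose. The median log2 fold change was -0.37 over the members and 0.00 over all genes tested, and 74 of 85 members had a value below 0, as did 50% of all genes. At an unadjusted p below 0.05, 42 members were lower and 6 higher, against 22.8% and 27.1% of all genes. The thresholds in the study's methods, a log2 difference beyond 0.58 in size together with an unadjusted p under 0.01, passed 20 members as lower and 6 as higher, against 6.39% and 15.3% of all genes. The study states these thresholds for DESeq2, while here they were applied to the edgeR values throughout. Summed over the members, expression was 7670 ± 121 CPM (SD, n = 4) in the Sham group and 5439 ± 1234 CPM in the Vehicle group, which is 70.9% of the Sham mean. The values of the Vehicle mice lay wholly below those of the Sham mice for 37 members, or 43.5%, against 18.8% of all genes, and wholly above for 5 members against 20.7% of all genes. In bulk tissue, fewer cells of a type and less RNA per cell cannot be told apart.

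**Figure D1:**
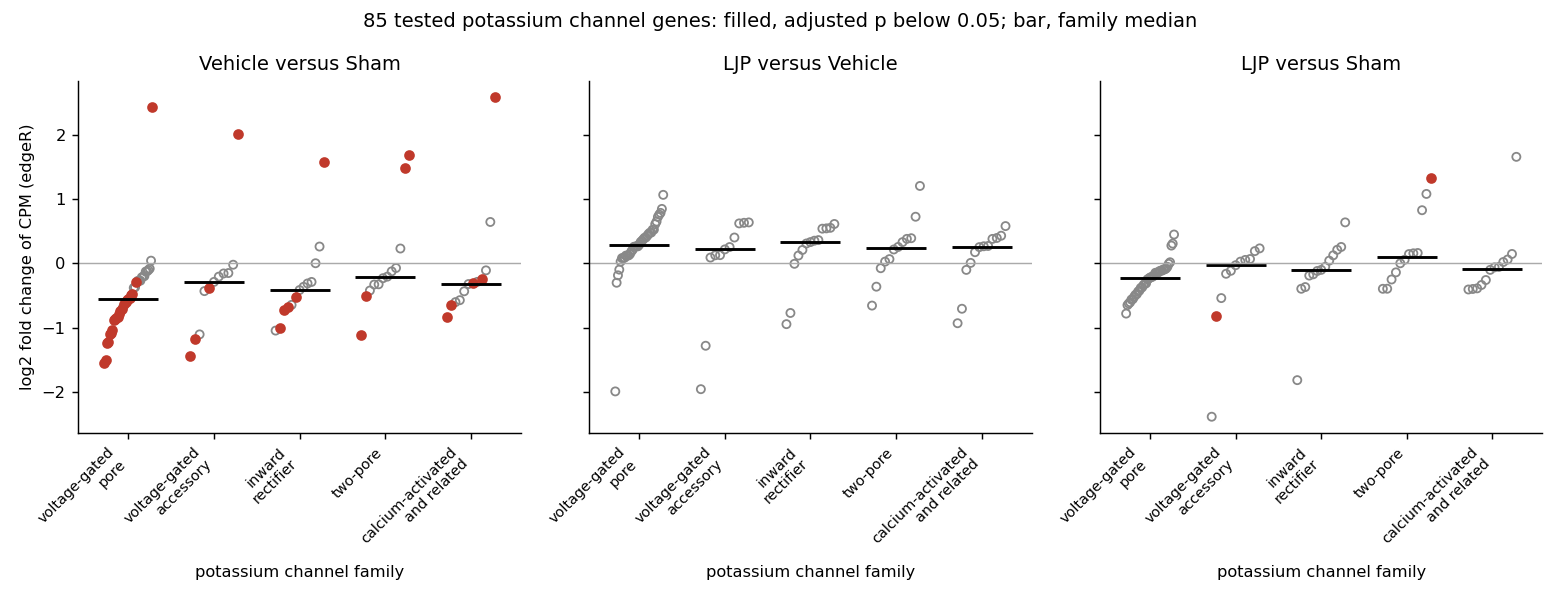
Log2 fold change of CPM (y axis, edgeR) for the 85 tested members in 3 comparisons, by channel family (x axis). Each point is 1 gene, filled points passed an adjusted p of 0.05 and bars mark family medians. In Vehicle against Sham mice the pore subunits lie mostly below 0 with a median of -0.55, and no point is filled in LJP against Vehicle mice.

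The 4 Vehicle mice were not alike. Vehicle mice 1 and 2 had 5018 and 3890 CPM over all members, and mice 3 and 4 had 6580 and 6269 CPM. Vehicle mouse 2 was the lowest of its group for 30 of the 35 members that fell and the highest for all 6 that rose, and mice 1 and 2 were both below mice 3 and 4 in 28 of the 35. Without Vehicle mouse 2, 30 members fell and 6 rose, against 15.6% and 18.7% of all genes. Leaving out Sham mice 1 to 4 in turn gave 22, 28, 24 and 29 members that fell, when 11.3 to 13.7% of all genes fell. Leaving out Vehicle mouse 3 gave the most, 42, when 20.6% of all genes fell.

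**Figure D2:**
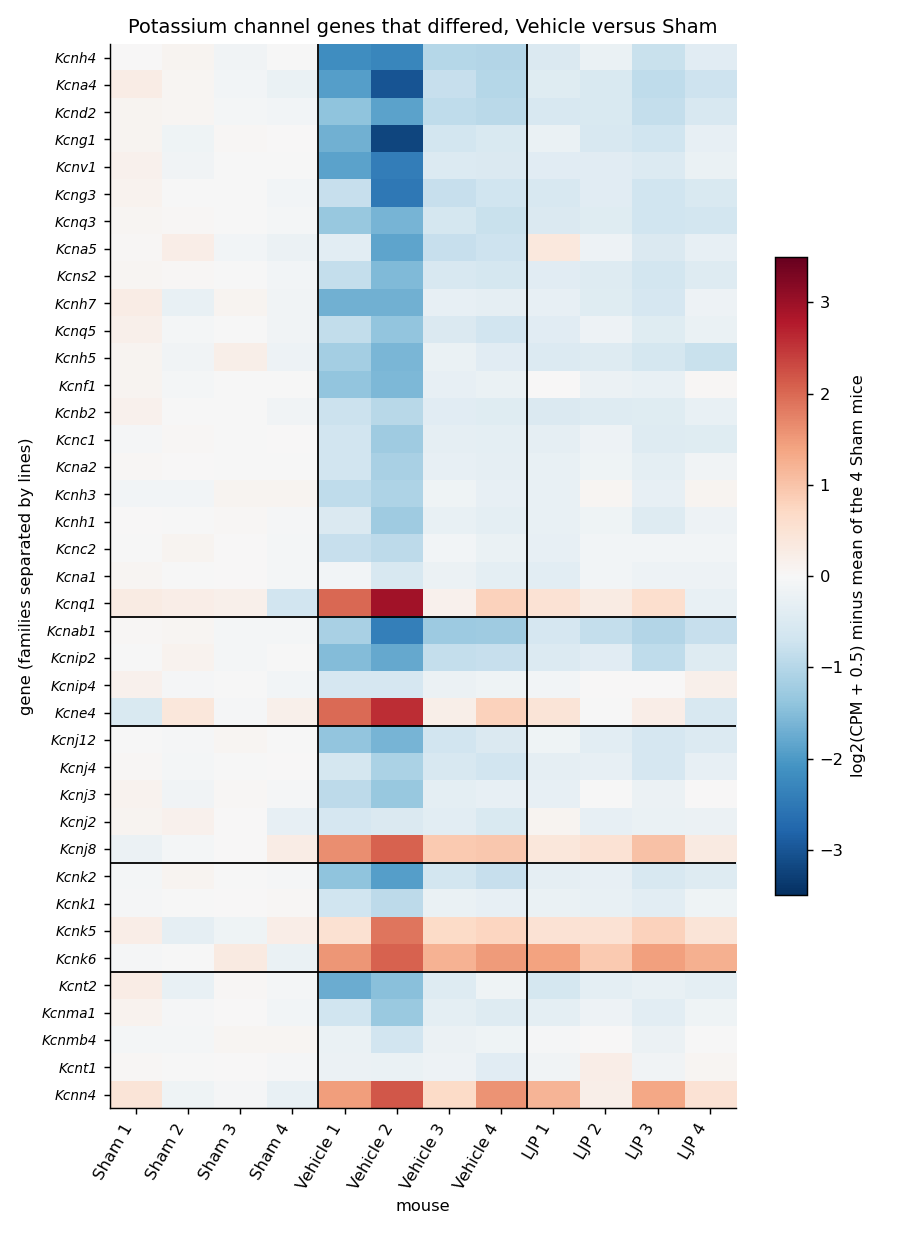
Log2(CPM + 0.5) minus the mean of the 4 Sham mice (colour) for 39 of the 41 members called in Vehicle against Sham mice (y axis, families separated by lines) in each of the 12 mice (x axis). Vehicle mouse 2 is the lowest of its group for 28 of the 33 genes drawn that fell and the highest for the 6 that rose.

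The pore subunits of voltage-gated channels held most of the fall. Of 37 tested, 22 fell (59.5%) and 1 rose (2.7%), against 17.3% and 22.7% of all genes. The median log2 fold change was -0.55, and it ran from -0.66 to -0.42 when 1 mouse was left out. The fall covered the axonal and dendritic Kcna group (4 of 6), the Kcnh group (5 of 8) and the fast-spiking Kcnc group (2 of 4). It also covered the silent subunits, which form channels only together with another pore subunit: Kcnf1, Kcng1, Kcng3, Kcns2 and Kcnv1 fell, 5 of 9 tested, and all 9 had values below 0.

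Kcnd2, which encodes the A-type channel of dendrites, had 134, 132, 121 and 118 CPM in the Sham mice. It had 47.4, 34.3, 68.1 and 65.2 CPM in the Vehicle mice and 84.8, 87.5, 70.8 and 84.9 CPM in the LJP mice. All Vehicle values were below all Sham values, and those of the LJP mice lay between those of the other groups. Kcnd2 was 2.35-fold lower after injury (log2 -1.23 ± 0.17 SE, edgeR adjusted p = 0.000406). Kcnh4, an ELK-type channel of striatum and cortex, fell from 31.6, 33.7, 29.0 and 31.2 CPM to 6.58, 6.06, 15.4 and 15.2 CPM (log2 -1.54 ± 0.27, adjusted p = 0.00139), and its LJP values were 21.9, 26.4, 18.0 and 23.7 CPM. These Kcnh4 values again put the LJP mice above every Vehicle mouse and below every Sham mouse.

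The M-current is a slow outward current that restrains repeated firing, and its subunits Kcnq3 and Kcnq5 fell. Kcnq3 had 232, 227, 218 and 209 CPM in the Sham mice, 88.0, 70.9, 143 and 128 CPM in the Vehicle mice and 156, 165, 137 and 141 CPM in the LJP mice (Vehicle against Sham log2 -1.04 ± 0.18, adjusted p = 0.00114). Kcnq5 went from 141 ± 13.1 to 79.4 ± 19.3 CPM (log2 -0.83 ± 0.15, adjusted p = 0.00159). No Vehicle mouse reached the lowest Sham mouse for either gene. Whether the falls of the pair differ in size was not tested.

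Kcnc1, a channel of fast-spiking interneurons, went from 344 ± 6.64 to 226 ± 59.7 CPM (log2 -0.60 ± 0.16, adjusted p = 0.00988). Kcna2 and Kcna1, which sit beside the nodes of myelinated axons, were lower by log2 -0.56 ± 0.15 (adjusted p = 0.0108) and -0.29 ± 0.10 (adjusted p = 0.0315). The Kcna1 call was lost in 4 of the 12 fits that left out 1 mouse. Other pore subunits that fell were Kcna4, Kcna5, Kcnb2, Kcnc2, Kcnf1, Kcng1, Kcng3, Kcnh1, Kcnh3, Kcnh5, Kcnh7, Kcns2 and Kcnv1, with log2 values from -1.496 (Kcna4) to -0.48 (Kcnc2). Kcna3, a channel of lymphocytes and microglia as well as neurons, had 12.6 ± 1.92 CPM in the Sham and 10.96 ± 3.98 CPM in the Vehicle group and did not pass the test (log2 -0.20 ± 0.25, adjusted p = 0.533).

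**Figure D3:**
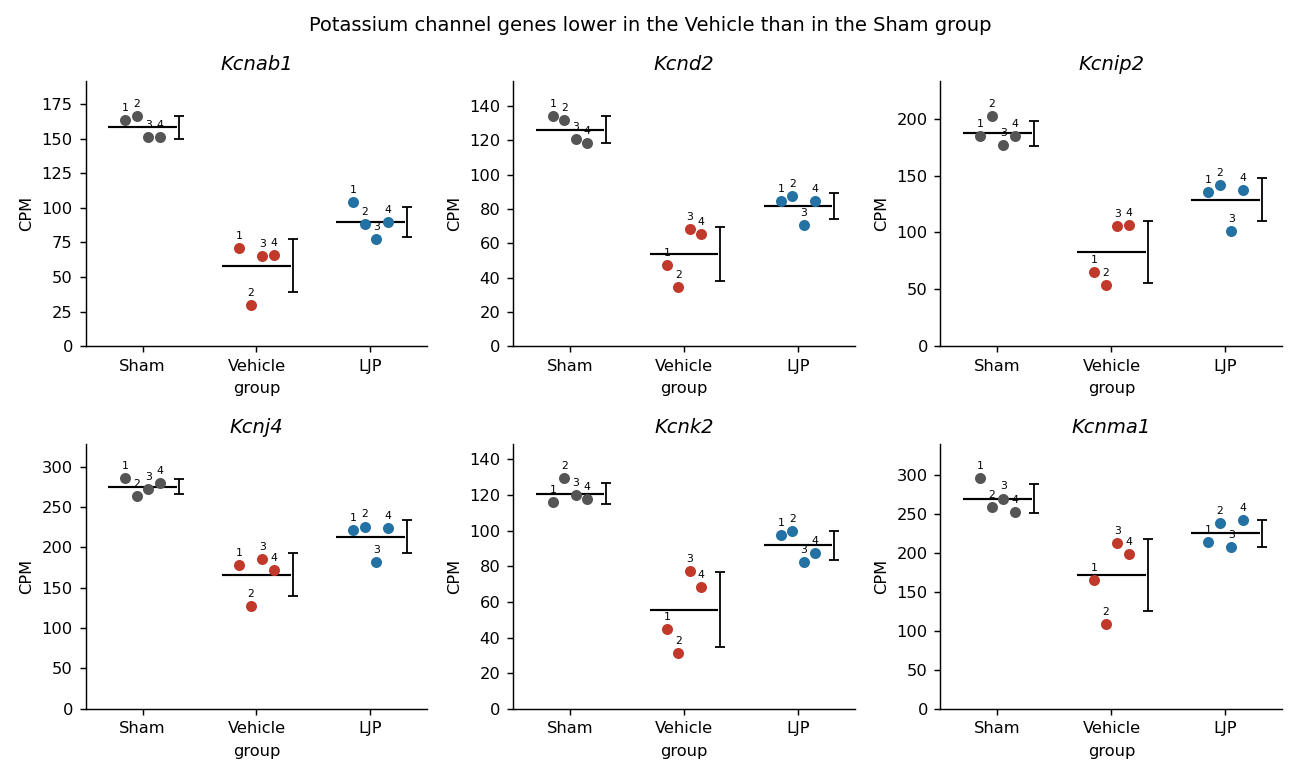
CPM (y axis, from 0) of 6 members that fell from Sham to Vehicle, by group (x axis). Points are single mice with their replicate number, horizontal lines are group means and the brackets beside them are 1 SD. All Vehicle points lie below all Sham points, and Vehicle mouse 2 is the lowest point in each panel.

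Kcnq1 was the pore subunit that rose. It pairs with Kcne subunits in heart and epithelia and is scarce in brain. Its Sham counts were 15, 15, 14 and 4, its Vehicle counts 89, 188, 14 and 27 and its LJP counts 24, 17, 22 and 8. The high values were those of Vehicle mice 1 and 2, and the groups overlapped. The log2 fold change was 2.44 ± 0.66 (adjusted p = 0.0120) and 1.66 without Vehicle mouse 2 (adjusted p = 0.0369). An exon of Kcnq1 overlaps the antisense transcript Kcnq1ot1, and since no strand setting of the counting is stated, reads of the 2 cannot be told apart there. The accessory subunit Kcne4, which inhibits several voltage-gated channels, had Sham counts of 11, 30, 20 and 26 and Vehicle counts of 130, 217, 26 and 44, and so showed the same mice on top (log2 2.01 ± 0.54, adjusted p = 0.0111). Its LJP counts were 38, 22, 26 and 11, which overlap those of Sham (LJP against Sham log2 0.05 ± 0.56, adjusted p = 0.973).

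Among 11 tested accessory subunits 3 fell (27.3%, against 17.3% of all genes) and 1 rose (9.09%, against 22.7% of all genes), with a median of -0.29 (-0.14 without Vehicle mouse 2). Whether these shares differ was not tested. Kcnab1, a beta subunit that speeds the inactivation of Kcna channels, had 164, 167, 151 and 151 CPM in the Sham mice and 71.3, 29.6, 65.4 and 66.1 CPM in the Vehicle mice. In the LJP mice it had 104, 88.2, 77.6 and 89.7 CPM. The groups did not overlap, and the Vehicle group was 2.72-fold below the Sham group (log2 -1.45 ± 0.21, adjusted p = 0.000484). Kcnip2, which carries Kcnd channels to the membrane, fell from 187 ± 10.9 to 82.9 ± 27.3 CPM (log2 -1.18 ± 0.20, adjusted p = 0.00104), as its partner Kcnd2 did. Kcnip4, of the same family, was lower by log2 -0.37 ± 0.12 (adjusted p = 0.0219). The abundant Kcnab2 had 560 CPM in the Sham and 504 CPM in the Vehicle group and did not pass (log2 -0.15, adjusted p = 0.371). Annotated transcripts on the opposite strand also overlap exons of Kcnab1, Kcne3, Kcnh3, Kcnh7, Kcnip4, Kcnq5, Kcnj3, Kcnj9, Kcnj13, Kcnj15, Kcnk1, Kcnk2, Kcnma1, Kcnmb4, Kcnn2 and Kcnt2, and the same limit holds there. Protein-coding genes are among these, Gca for Kcnh7 (696 bases), Gigyf2 for Kcnj13 (623 bases), 5730480H06Rik for Kcnip4 (168 bases) and Mcrs1 for Kcnh3 (1 base). Kcnab2 shares 125 bases with a transcript on its own strand.

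Of 13 inward rectifiers 4 fell (30.8%) and 1 rose (7.69%), against 17.3% and 22.7% of all genes, with a median of -0.41 (-0.20 without Vehicle mouse 2). The falls lay in the strong rectifiers that hold the neuronal resting potential, 3 of 4 tested, and in 1 of the 4 G protein-gated channels. Kcnj4 had 286, 264, 272 and 280 CPM in the Sham mice and 179, 127, 186 and 172 CPM in the Vehicle mice (log2 -0.73 ± 0.11, adjusted p = 0.000701). Its values in the LJP mice were 221, 226, 182 and 224 CPM, all below the Sham mice. Kcnj12 fell by 1.01 on the log2 scale (SE 0.21, adjusted p = 0.00360) and Kcnj2 by 0.52 (SE 0.12, adjusted p = 0.00557). Kcnj3, the shared subunit of G protein-gated channels in neurons, fell by 0.67 (SE 0.18, adjusted p = 0.0127).

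Glial inward rectifiers did not pass the test. Kcnj10, the main potassium uptake channel of astrocytes, had 184, 195, 191 and 175 CPM in the Sham mice and 156, 200, 275 and 264 CPM in the Vehicle mice (log2 0.26, 95% interval -0.07 to 0.59, adjusted p = 0.185). Kcnj16, its partner, had a log2 fold change of 0.00 with an interval of -0.39 to 0.40. In both genes Vehicle mouse 1 was lowest and Vehicle mice 3 and 4 were highest of their group. Kcnj11, the pore of the neuronal ATP-sensitive channel, was just outside the threshold (67.7 ± 2.93 against 54.5 ± 9.32 CPM, log2 -0.31 ± 0.12, adjusted p = 0.0515).

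The rectifier that rose was Kcnj8, the pore of the ATP-sensitive channel of pericytes and vascular muscle. It had 3.11, 3.49, 3.73 and 4.51 CPM in the Sham mice, 12.4, 17.1, 7.37 and 7.60 CPM in the Vehicle mice and 5.04, 5.42, 7.94 and 4.74 CPM in the LJP mice. All Vehicle and all LJP mice lay above the Sham mice, and LJP mouse 3 lay within the Vehicle range. The Vehicle group was 2.99-fold above the Sham group (log2 1.58 ± 0.28, adjusted p = 0.00133). Its regulatory subunit Abcc9 had 11.3 CPM in the Sham and 15.7 CPM in the Vehicle group (log2 0.47 ± 0.18, adjusted p = 0.0540) and is named after its values were seen.

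**Figure D4:**
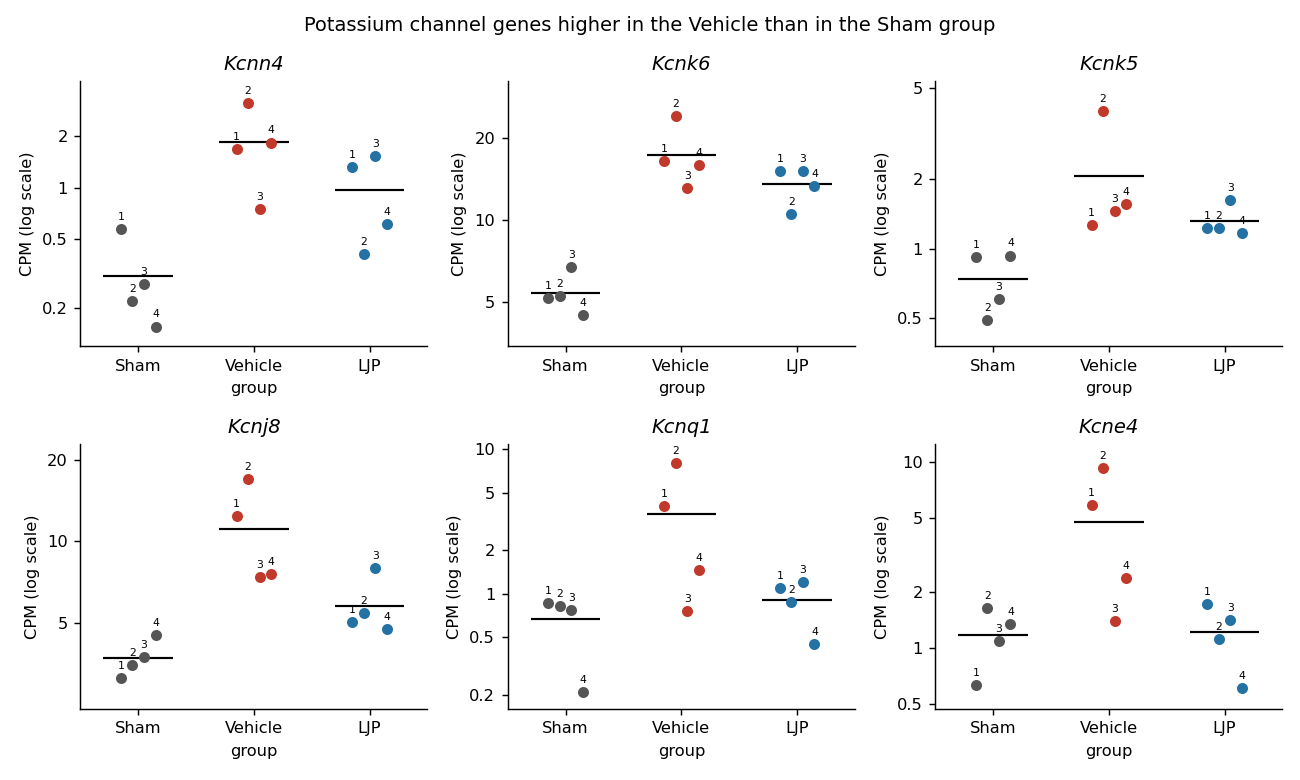
CPM (y axis, log scale) of the 6 members that rose from Sham to Vehicle, by group (x axis). Points are single mice with their replicate number and horizontal lines are group means. Vehicle mouse 2 is the highest of its group in every panel, and only in the Kcnq1 and Kcne4 panels do Vehicle and Sham mice overlap.

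The two-pore channels carry the background leak of potassium. Of 12 tested 2 rose and 2 fell, or 16.7% each way, near the shares over all genes. The median was -0.22, with 9 of 12 values below 0, and it was -0.059 without Vehicle mouse 2. Summed over the family the Vehicle group had 73.5% of the Sham mean. Kcnk6 had 5.13, 5.23, 6.69 and 4.46 CPM in the Sham mice, 16.4, 23.98, 13.03 and 15.9 CPM in the Vehicle mice and 15.1, 10.5, 15.1 and 13.3 CPM in the LJP mice. Every mouse with tMCAO was above every Sham mouse. The rise in the Vehicle group was 3.23-fold (log2 1.69 ± 0.20, adjusted p = 0.000153), the smallest p among the members. Kcnk5, an acid-sensitive channel known from kidney, had Sham counts of 16, 9, 11 and 18, Vehicle counts of 28, 92, 27 and 29 and LJP counts of 27, 24, 30 and 21. Its groups of Sham and Vehicle mice did not overlap (log2 1.48 ± 0.39, adjusted p = 0.00998), and the log2 value was 0.94 without Vehicle mouse 2 (adjusted p = 0.0257).

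Kcnk2, a channel opened by stretch and lipids and present in neurons and astrocytes, had 116, 129, 120 and 118 CPM in the Sham mice and 45.1, 31.5, 77.5 and 68.5 CPM in the Vehicle mice. It was 2.17-fold lower there (log2 -1.12 ± 0.21, adjusted p = 0.00202). Kcnk1, a weak rectifier, fell from 115 ± 2.90 to 81.4 ± 17.8 CPM (log2 -0.51 ± 0.13, adjusted p = 0.00791). Kcnk13, a leak channel of resting microglia, had 12.7 ± 0.612 CPM in the Sham and 14.95 ± 1.11 CPM in the Vehicle group and did not pass (log2 0.23 ± 0.11, adjusted p = 0.110), though its groups did not overlap.

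Of the 12 calcium-activated and related channels 4 fell (33.3%) and 1 rose (8.33%), against 17.3% and 22.7% of all genes, with a median of -0.31. Kcnn4, the intermediate-conductance channel of microglia, lymphocytes and endothelium, had the largest fitted rise among the 85 members tested. Its Sham counts were 10, 4, 5 and 3, its Vehicle counts 37, 72, 14 and 34 and its LJP counts 29, 8, 28 and 11, so the Sham values stood near the limit of detection. The lowest Vehicle mouse was above the highest Sham mouse (log2 2.59, 95% interval 1.38 to 3.80, adjusted p = 0.00386). Kcnma1, the large-conductance channel, fell from 270 ± 18.9 to 172 ± 46.1 CPM (log2 -0.65 ± 0.16, adjusted p = 0.00771), and its neuronal beta subunit Kcnmb4 from 68.6 ± 3.502 to 55.4 ± 8.57 CPM (log2 -0.31 ± 0.11, adjusted p = 0.0351). The sodium-activated channels Kcnt1 (log2 -0.25 ± 0.08, adjusted p = 0.0330) and Kcnt2 (log2 -0.84 ± 0.29, adjusted p = 0.0380) also fell. The calls of Kcnmb4, Kcnt1 and Kcnt2 held in 8, 7 and 5 of the 12 fits that left out 1 mouse. Kcnn2, a small-conductance channel of neurons, had 37.7 ± 1.13 against 27.95 ± 8.72 CPM and did not pass (log2 -0.43 ± 0.17, adjusted p = 0.0611).

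Markers of neurons, astrocytes and oligodendrocytes were abundant in every library, the last with sums of 3822 to 4966 CPM, as brain tissue would have them. Marker lists of cell types moved alongside the channels. Of 10 neuronal markers 4 fell in the Vehicle group, with a median of -0.49 (smallest p for Nefl, Syt1 and Map2). Their summed level was 7393 to 8183 CPM in the Sham mice, 4449 to 7051 CPM in the Vehicle mice and 6772 to 7963 CPM in the LJP mice. All 8 markers of striatal neurons fell, with a median of -2.23 (smallest p for Adora2a, Pde10a and Rgs9), and their sum was 2989 to 3515, 244 to 1231 and 1099 to 2006 CPM in the same order of groups. Vehicle mouse 2 was lowest in both sums. The part of these cell types in the fall of the channels was not tested.

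Markers of other cell types also differed between the groups. Of 8 markers of microglia and macrophages 7 rose in the Vehicle group (median 1.43, smallest p for Cd68, Ptprc and Csf1r), with sums of 274 to 279 CPM in the Sham and 502 to 899 CPM in the LJP mice. Vehicle mice 1 to 4 had 449, 809, 824 and 867 CPM, so this sum was lowest in Vehicle mouse 1, 1 of the 2 mice with the most Kcnj8, Kcnq1 and Kcne4. Of 5 endothelial markers 4 rose (median 2.00, smallest p for Cldn5, Pecam1 and Cdh5). Their sums were 171 to 187 CPM in the Sham mice and 166 to 226 CPM in the LJP mice, while Vehicle mice 1 to 4 had 618, 1294, 251 and 313 CPM. The endothelial sum was thus highest in the mice with the most Kcnj8, Kcnq1 and Kcne4. Kcnk6 was also highest in these mice, yet it had 10.5 to 15.1 CPM in the LJP mice. The other risen members differed: Kcnk5 was lowest of the group in Vehicle mouse 1 (1.27 CPM). Kcnn4 was higher in Vehicle mouse 4 (1.83 CPM) than in Vehicle mouse 1 (1.68 CPM). Of 5 pericyte and smooth muscle markers Pdgfrb and Tagln rose, with a median over the list of 0.20, while Rgs5 (log2 -0.37) and Myh11 (log2 -0.40) did not pass and had values below 0. The sum of the list was 132 to 146 CPM in the Sham mice and 184, 336, 154 and 142 CPM in Vehicle mice 1 to 4. Of 8 astrocyte markers 2 rose and 1 fell (smallest p for Gfap, Aldh1l1 and Slc1a2), of 7 oligodendrocyte markers none was called, and of 2 markers of their precursors 1 rose (Pdgfra). Of 5 T cell markers Cd4 alone was tested, and it fell from 22.3 to 3.84 CPM (log2 -2.54). The other 4 had at most 13 counts in a mouse and were not lower in the Vehicle group. Their Vehicle and Sham means were 0.275 and 0.0822 CPM (Cd3e), 0.0113 and 0 (Cd3d), 0.164 and 0.112 (Cd8a) and 0.294 and 0.262 (Trac). The fall of Cd4 is thus not a fall of the T cell list. None of 5 neutrophil markers passed the filter, yet their sum was 142 and 36.05 CPM in Vehicle mice 1 and 2, 0.592 and 4.15 CPM in Vehicle mice 3 and 4, and at most 0.727 CPM in any other mouse. The part of any of these cells in the rise of the members was not tested.

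**Figure D5:**
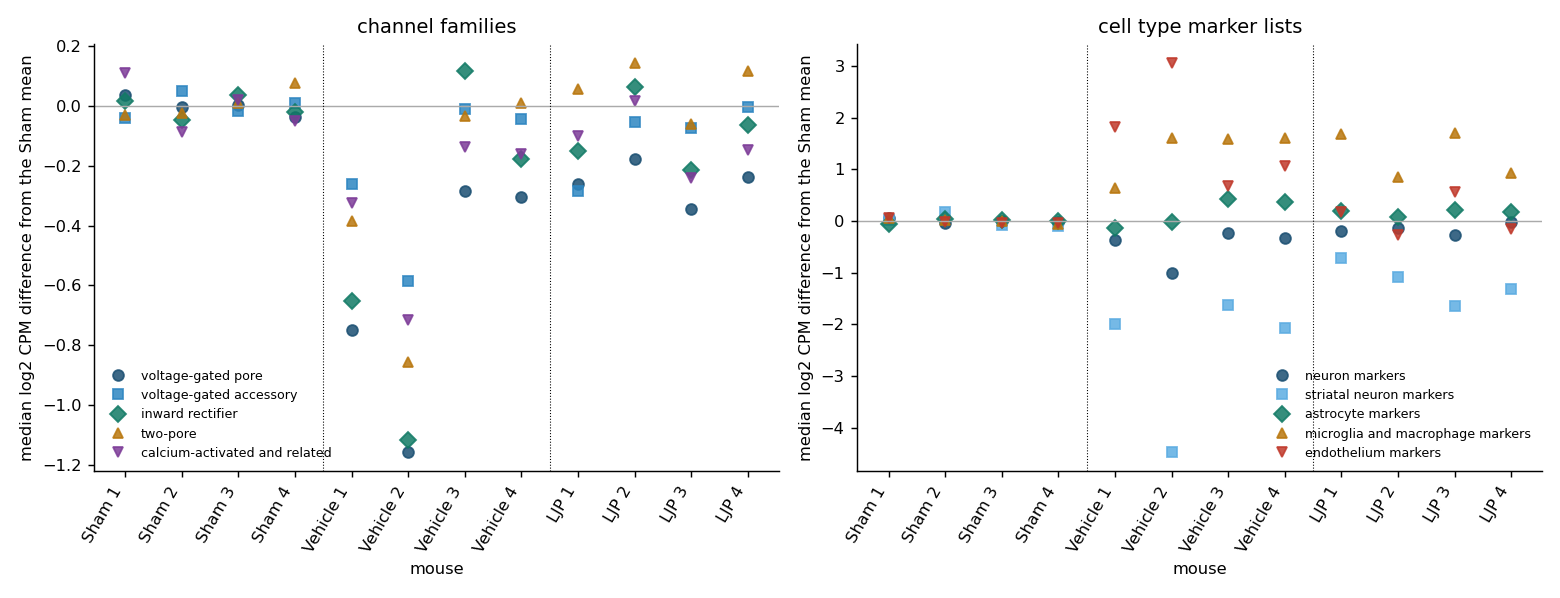
Median log2 CPM difference from the Sham mean (y axis) in each of the 12 mice (x axis), for the 5 channel families (left) and for 5 cell type marker lists (right). Vehicle mouse 2 is the lowest for all 5 families, and it is also lowest for the neuronal and striatal markers and highest for the endothelial markers.

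Kcnj13, a rectifier of the choroid plexus, varied between mice in every group. Its Sham counts were 24, 143, 109 and 165, its Vehicle counts 12, 20, 102 and 88 and its LJP counts 24, 19, 69 and 17, and the log2 fold change of -1.04 ± 0.72 did not pass (adjusted p = 0.265). Kcne2, an accessory subunit of the same epithelium named after its values were seen, followed with 5, 83, 29 and 101, then 14, 14, 42 and 37, then 3, 1, 32 and 6 counts. The 7 choroid plexus markers summed to 33.7, 710, 447 and 921 CPM in the Sham mice, 27.9, 29.3, 540 and 498 CPM in the Vehicle mice and 27.4, 28.6, 393 and 24.2 CPM in the LJP mice. The same mice were high for both genes and for the list. None of the 7 markers was called in any comparison.

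Genes that work with the channels were counted from lists of partners and transporters. Of 13 tested partner subunits 6 fell in the Vehicle group and none rose, with a median of -0.40. Those with the smallest p were Adam22 (log2 -0.57), Lgi1 (-0.65), which together anchor Kcna channels, and Dpp6 (-0.57), which modulates Kcnd channels. Of 11 tested potassium pumps and cotransporters 4 rose and 4 fell. Slc12a4 and Slc12a7, which export potassium with chloride, rose by log2 1.199 and 1.82, and Atp1b2, the glial beta subunit of the sodium pump, by 0.47. Of the 4 pacemaker channels Hcn2 fell (log2 -0.65, adjusted p = 0.00842) and the others did not pass. No gene of these lists or of the marker lists was called in LJP against Vehicle. In LJP against Sham 7 microglial and 2 astrocyte markers and Atp1b2 were higher, and 1 striatal marker and Cd4 were lower.

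The second comparison, LJP against Vehicle, asks whether the treatment altered the response to ischemia. No member was called in either direction by edgeR, and neither was almost any other gene: 0% of the 17558 genes tested were higher and 0.0228% lower. At an unadjusted p below 0.05, 25 members were higher and 3 lower, or 29.4% and 3.53%, against 12.3% and 17.4% of all genes. The median log2 fold change was 0.27 over the members (0.15 without Vehicle mouse 2) and 0.00 over all genes, and 70 of 85 values were above 0 against 49.8% of all genes, the other 15 lying below 0 against 50.2%. Summed over the members the LJP mice had 6728 ± 426 CPM, 87.7% of the Sham mean. The LJP mice lay wholly above the Vehicle mice for 12 members, or 14.1%, against 5.77% of all genes, and wholly below for none against 5.91% of all genes. This comparison and the first share the 4 Vehicle mice, so opposite directions in the 2 are not independent.

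The count of calls hung on the method and on single Vehicle mice. DESeq2 called 14 members higher and 3 lower, when it called 3.88% of all genes higher and 9.48% lower. Leaving out Vehicle mouse 3 in edgeR gave 26 higher and 3 lower (8.46% and 13.1% of all genes), and leaving out Vehicle mouse 4 gave 10 higher and 3 lower (3.35% and 8.38% of all genes), while leaving out Vehicle mouse 1 or 2 gave none. The thresholds in the study's methods passed 6 members as higher and 3 as lower, against 1.07% and 5.89% of all genes.

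The members with the smallest p were Kcnh4, Kcnd2 and Kcnip4 on the higher side. Kcnh4 had 22.5 ± 3.54 CPM in the LJP and 10.8 ± 5.19 CPM in the Vehicle group (log2 1.07 ± 0.27, edgeR adjusted p = 0.0678, DESeq2 adjusted p = 0.00510). Kcnd2 had 82.0 ± 7.55 against 53.8 ± 15.9 CPM (log2 0.61 ± 0.17, edgeR adjusted p = 0.0699, DESeq2 adjusted p = 0.0163). Kcnip4 had 33.2, 36.1, 36.5 and 40.9 CPM in the LJP mice and 23.8, 23.9, 30.8 and 32.4 CPM in the Vehicle mice (log2 0.40 ± 0.12, edgeR adjusted p = 0.0711, DESeq2 adjusted p = 0.0219). In all 3 genes every LJP mouse was above every Vehicle mouse.

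On the lower side the smallest p belonged to Kcne4, Kcnj8 and Kcnq1, which had risen with injury. Kcne4 had 1.22 ± 0.473 CPM in the LJP and 4.75 ± 3.61 CPM in the Vehicle group (log2 -1.96 ± 0.53, edgeR adjusted p = 0.0680, DESeq2 adjusted p = 0.00678). Kcnj8 had 5.78 ± 1.46 against 11.1 ± 4.59 CPM (log2 -0.94 ± 0.27, edgeR adjusted p = 0.0703, DESeq2 adjusted p = 0.0150). Kcnq1 had 0.900 ± 0.332 against 3.58 ± 3.31 CPM (log2 -1.99 ± 0.64, edgeR adjusted p = 0.0818, DESeq2 adjusted p = 0.0212). The LJP and Vehicle mice overlapped in each of these 3 genes, and without Vehicle mouse 2 the Kcnq1 value was -1.21. The endothelial markers had a median of -1.54 in the same comparison with none of 5 called. The neuronal and striatal neuron markers had medians of 0.28 and 1.06, with none of 10 and none of 8 called. The part of these cell types in the values of the members was not tested. Kcnk6 (log2 -0.36 ± 0.19, adjusted p = 0.217) and Kcnn4 (log2 -0.93 ± 0.49, adjusted p = 0.213) did not pass, with 95% intervals from -0.78 to 0.05 and from -1.98 to 0.12.

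The third comparison, LJP against Sham, shows what differed from uninjured brain under treatment. Kcnk6 was the member that was higher and Kcnab1 the one that was lower, 1.18% of the 85 each way, against 3.85% of all genes tested higher and 0.9% lower. Kcnk6 had 13.5 ± 2.18 against 5.38 ± 0.938 CPM (log2 1.33 ± 0.20, adjusted p = 0.00265), and the call held in all 12 fits that left out 1 mouse. Kcnab1 had 89.9 ± 10.9 against 158 ± 8.27 CPM (log2 -0.81 ± 0.21, adjusted p = 0.0420), and this call held in 4 of the 12. The median was -0.14 over the members and -0.22 over pore subunits, against 0.00 over all genes. Values were above 0 for 26 members and below 0 for 59, against 50.6% and 49.4% of all genes. At an unadjusted p under 0.05, 4 members were higher and 10 lower (11.6% and 7.29% of all genes), and the thresholds of the study's methods passed 1 and 2 (5.1% and 0.797% of all genes). The LJP mice lay wholly below the Sham mice for 28 members, or 32.9%, against 12% of all genes, and wholly above for 6 against 12.9%. Among the 28 were Kcnd2 (log2 -0.62, adjusted p = 0.0584), Kcnj4 (log2 -0.37, adjusted p = 0.0899) and Kcnq3 (log2 -0.56, adjusted p = 0.0950).

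The number of calls in LJP against Sham turned on whether the Vehicle mice entered the fit. With the LJP and Sham mice alone, 31 members were lower and 4 higher, when 11.8% of all genes in that fit were lower and 12.1% higher. In the fit over all groups without Vehicle mouse 2, 14 members were lower (5.5% of all genes), and without Vehicle mouse 3 there were 3. The log2 fold change of Kcnab1 ranged from -0.89 to -0.75 over the fits that left out 1 mouse.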

How the data were processed

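Total RNA of the ischemic hemisphere was enriched for poly(A) RNA and sequenced by the authors, who deposited unnormalised read counts for every gene in each of the 12 libraries. The submitters' processing notes name featureCounts and DESeq2 and the builds GRCm39 and mm10. The aligner and the strand setting are not given in the sources used here. Positions in the table equal those of RefSeq GRCm38.p6 for all 94 members and for 39726 of 39756 genes. No column was left without a sample, and no row lacked a gene.

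The deposited counts entered edgeR 4.0.16 under R 4.3.3 (filterByExpr, TMM factors, quasi-likelihood test over all 12 mice, Benjamini-Hochberg over 17558 genes). DESeq2 1.42.0, other scaling, no filter, the 2 groups compared alone, a replicate block, the study's thresholds and leaving out each mouse were alternatives. Standard errors and intervals come from the edgeR fit (95%). The scripts were tested on simulated data. The members and lists were chosen with earlier results of these data known. Genes named in the text were, per family, up to 4 higher and 4 lower called members with the smallest p in Vehicle against Sham, called members or the 3 with the smallest p in the other comparisons, and 22 members with a textbook role; exceptions are stated. Some members are counted but not reported here by name. No 2 libraries of a group agreed within sampling noise (chi-square per degree of freedom at least 2.56). Exon overlaps were read from GENCODE vM21 and promoters from RefSeq.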

Additional observations from a re-analysis of the deposited data

Results flagged for a closer look

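In 99 groups of 4 mice (33 named genes in 3 groups), 8 had a mouse set apart from the other 3 by a gap whose share of the range exceeded Dixon's 95% critical value, where chance gives 4.95. Vehicle mouse 2 stood apart as the lowest for Kcnab1 (29.6 CPM, next 65.4, gap ratio 0.858), and as the highest for Kcnk5 (3.95 CPM, next 1.56, ratio 0.891). LJP mouse 3 stood apart as the lowest for Kcnd2 (70.8 CPM, next 84.8, ratio 0.837), Kcnip2 (101 CPM, next 135, ratio 0.842) and Kcnj4 (182 CPM, next 221, ratio 0.895). The same mouse was the highest for Kcnk5 (1.63 CPM, next 1.23, ratio 0.877) and Kcnj13 (3.75 CPM, next 1.09, ratio 0.949). Sham mouse 4 was the lowest for Kcnq1 (0.207 CPM, next 0.767, ratio 0.851), which is 4 counts.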

How the results depend on the processing

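In Vehicle against Sham, the number of members that rose stayed at 6 or 7 under every alternative, while the number that fell was 20 under the study's thresholds (6.39% of all genes), 23 with the 2 groups alone (11.6%) and 22 to 42 when 1 mouse was left out (11.3 to 20.6%). In LJP against Vehicle, the number higher was 6 under the study's thresholds (1.07% of all genes), 14 with DESeq2 (3.88%), 1 without the filter on low counts (0.166%) and 0 to 26 when 1 mouse was left out (0 to 8.46%), and the number lower was 3, 3, 0 and 0 to 3. In LJP against Sham, the number higher was 4 with the 2 groups alone (12.1% of all genes), and the number lower was 2 under the study's thresholds (0.797%), 5 with DESeq2 (1.98%), 31 with the 2 groups alone (11.8%) and 0 to 14 when 1 mouse was left out (0.241 to 5.5%). The median of accessory subunits in LJP against Sham ran from -0.12 to 0.015 and that of calcium-activated channels from -0.19 to -0.0402 when 1 mouse was left out. In Vehicle against Sham the medians of accessory subunits, inward rectifiers and two-pore channels ran from -0.46 to -0.14, -0.64 to -0.20 and -0.43 to -0.059, and in LJP against Vehicle the median of all members ran from 0.15 to 0.40, with the value nearest 0 in each of these 4 being that without Vehicle mouse 2 and the farthest that without Vehicle mouse 4 (accessory subunits) or 3 (the others). The causes were not tested, except that fits of the 2 groups alone leave out the spread of the third group. Same-numbered mice did not deviate together (correlation from -0.32 to 0.11, above 0.1 in 1 of 12 pairs). Vehicle mouse 2 and LJP mouse 3, of unlike number, reached 0.40. Other differences between mice also enter these correlations, so they cannot tell whether the numbers pair the mice, and the main fit used no pairing. With a replicate block 33 members fell and 6 rose in Vehicle against Sham (15.1% and 19.7% of all genes), and 0 were lower and 1 higher in LJP against Sham (0.336% and 2.31%). Without the filter, Kcnj15 was higher in Vehicle than Sham mice (log2 4.32, adjusted p = 0.0122). Scaling by library size alone moved the median of all genes in Vehicle against Sham to 0.08, with 31 members lower and 7 higher (13.1% and 27% of all genes). With 4 mice a group and few counts for Kcnn4, Kcnk5, Kcnq1 and Kcne4, small differences in these genes were not detectable.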
